A study of Mus musculus with 9 samples.

Results

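Genes that supply thyroid hormone to cells or answer to it were followed in the mediobasal hypothalamus (MBH) of weaned male mice. They were chosen by symbol, as Thra, Thrb, Dio2, Dio3, Klf9, Hr and Crym, or 7 of the 35975 genes with a quantified transcript. All 28 of their annotated transcripts were quantified, and 6 of the 7 were among the 15340 genes left after low counts were filtered out. Dio3 was not among them and was described from its counts alone.

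RNA sequencing (RNAseq) was performed on the MBH, the basal part of the hypothalamus with the arcuate nucleus and the floor of the third ventricle. All mice were wild-type C57Bl/6 males at postnatal day 21 (P21), and no transgene or drug was used. The control group (CTRL, n = 4 libraries) came from dams that drank plain water, and the emulsifier group (Emul, n = 5 libraries) from dams whose water held 1% carboxymethyl cellulose and 1% polysorbate 80 from before mating until weaning, so the pups themselves had been exposed through the dam. The methods give 4 control and 5 emulsifier litters, and neither they nor the labels say whether a library was made from 1 pup or from several.

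Thyroid hormone leaves the thyroid mostly as the prohormone T4, which membrane transporters carry into brain cells. The deiodinase Dio2 turns T4 into the active hormone T3, in brain mostly in astrocytes and in tanycytes, the glia that line the third ventricle at the MBH, and the deiodinase Dio3 destroys T3 and T4. T3 binds the nuclear receptors encoded by Thra and Thrb, which sit on DNA and switch nearby genes, among them Klf9 and Hr. T3 drives much of the maturation of the rodent brain in the weeks after birth, and in the hypothalamus it also restrains its own axis.

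Libraries held between 28245360 and 46067534 estimated counts, with the lowest total in CTRL 3. Counts were taken relative to library size after TMM scaling, as CPM on a log2 scale, and limma-voom was fitted over all 15340 genes. Fold changes are Emul over CTRL on the log2 scale with their standard error (SE), and adjusted p-values are Benjamini-Hochberg values over all genes tested. Values held once per library were set between groups with an exact permutation test (two-sided) that tries each division of the 9 libraries into 4 and 5. The smallest p-value it allows is 0.0079.

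Klf9 was the only one of the 6 tested genes with an unadjusted p-value under 0.05 in limma-voom. It was 1.14-fold higher in Emul (log2 fold change 0.20, SE 0.057, unadjusted p = 0.0048) and did not pass adjustment (limma-voom adjusted p = 0.17). Across all genes, 15.8% had an unadjusted p-value under 0.05, 6.84% as higher and 8.99% as lower in Emul, so 1 of 6 is close to the background. None of the 6 passed an unadjusted p-value under 0.05 with a change above 1.5-fold, which 0.469% of all genes passed, and none passed an adjusted p-value of 0.05, which 0.117% passed. The study names its own cutoff in one place as a p-value and in another as a false discovery rate, each with this fold change. Groups without overlap in log2 CPM were seen in 6.6% of all genes, in 2.8% with Emul higher, and in none of the 7. Dio2 and Hr were also higher in Emul on average, at 0.33 (SE 0.16) and 0.15 (SE 0.079), and Thra, Thrb and Crym lay between -0.01 and 0.03. In bulk tissue, fewer cells of a type and less RNA per cell cannot be told apart.

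**Figure D1:**
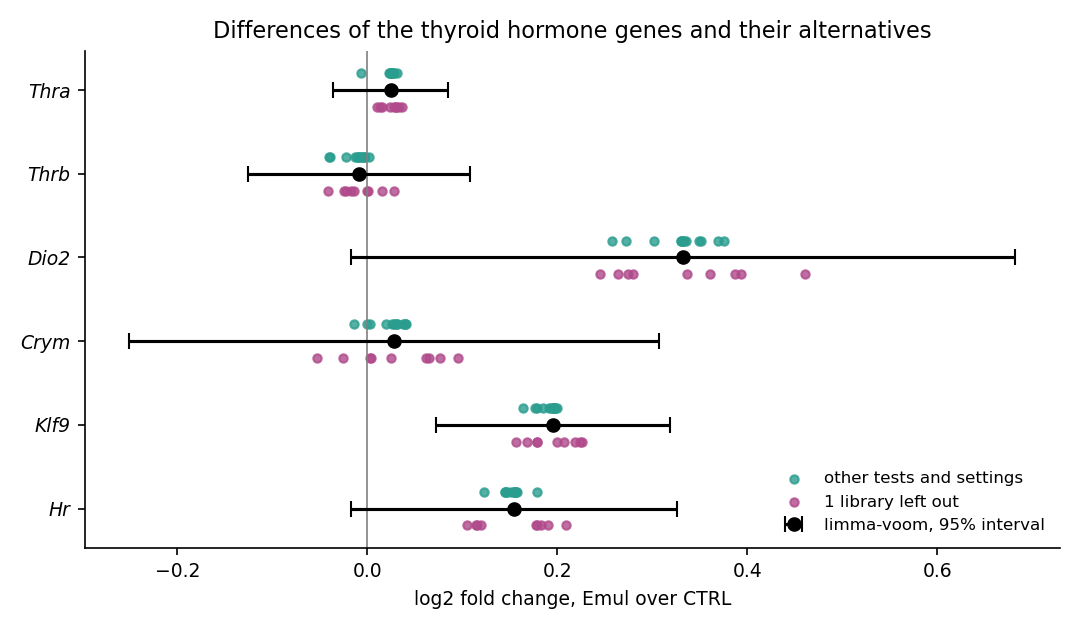
Log2 fold change of the 6 tested genes, Emul over CTRL (horizontal axis). Black points with bars are limma-voom values with 95% confidence intervals, green points the other tests and settings, and magenta points the fits with 1 library left out. The interval of Klf9 runs from 0.07 to 0.32 and does not reach 0, while those of Dio2 and Hr start at -0.02.

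Dio2 encodes the type 2 deiodinase, which makes T3 in the tissue. Its log2 CPM was 4.59, 4.27, 4.22 and 4.59 in CTRL 1 to 4 and 4.25, 4.65, 5.13, 4.76 and 5.06 in Emul 1 to 5. Emul 2 to 5 lay above every CTRL library, and Emul 1 lay among the lower CTRL libraries, so the groups overlapped. The difference of 0.33 had a 95% interval from -0.02 to 0.68 and missed the threshold (limma-voom unadjusted p = 0.061, adjusted p = 0.34). In size it was larger than that of all but 3.41% of genes, and 17.8% of genes had a smaller p-value. Between libraries of one group Dio2 also varied the most of the 6, with an SD of 0.20 in CTRL and 0.35 in Emul on the log2 scale. With 1 library left out at a time the difference ran from 0.24 without Emul 3 (limma-voom unadjusted p = 0.13) to 0.46 without Emul 1 (limma-voom unadjusted p = 0.0028, adjusted p = 0.18). The fit without Emul 1, the Emul library that lay among CTRL, was the only one of these 9 with an unadjusted p-value under 0.05.

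The bases before the start of Dio2 are shown because this gene had the largest difference of the 6, and because Dio2 is a known target of cyclic AMP signalling. Sequence and start are those of RefSeq on GRCm38.p6, on the minus strand at chr12:90739039-90739288. The only transcript quantified for Dio2 starts further on, at chr12:90738438, and the distances below are from the RefSeq start. Capitals mark TGACGTCA, the cyclic AMP response element (CRE), whose first base lies 95 bases before the start, and TATAAA, the TATA motif, 30 bases before it.
Dio2 promoter: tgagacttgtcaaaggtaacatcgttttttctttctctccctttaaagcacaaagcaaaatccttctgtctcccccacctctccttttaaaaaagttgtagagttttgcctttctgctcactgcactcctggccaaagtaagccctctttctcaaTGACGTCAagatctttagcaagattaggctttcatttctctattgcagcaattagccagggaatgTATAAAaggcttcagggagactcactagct
TGACGTCA, searched on both strands, occurs in 1.55% of the 32851 windows of 250 bases before RefSeq starts. TATAAA occurs in 12.4% of them. The half-site of T3 receptors, AGGTCA, is not in this window in either direction.

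Dio3 encodes the type 3 deiodinase, which removes T3 and T4. It was close to the detection limit, with 32, 22, 20 and 43 estimated counts in CTRL 1 to 4 and 20, 32, 19, 25 and 26 in Emul 1 to 5. The groups overlapped. The exact 95% Poisson interval of a count of 20 runs from 12.2 to 30.9 and that of 43, in CTRL 4, from 31.1 to 57.9, both for counting error only. On the log2 CPM scale the values were -0.17, -0.77, -0.41 and 0.07 in CTRL and -0.84, -0.28, -0.85, -0.73 and -0.38 in Emul, and the means did not differ beyond the spread (exact permutation test, p = 0.22). In TPM, a library share that also divides counts by transcript length, CTRL averaged 0.890 ± 0.178 (SD, n = 4) and Emul 0.619 ± 0.136 (SD, n = 5) (exact permutation test, p = 0.048). The gene has a long and a short transcript in the annotation, and the short one took no count in CTRL 1, Emul 1 and Emul 4, so the TPM also moves with how these few counts were shared out.

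The ratio of Dio2 to Dio3 within a library sets the enzyme that makes T3 against the one that removes it, and does not depend on library size. The log2 ratio of TPM was 3.25, 3.26, 2.90 and 2.85 in CTRL 1 to 4. In Emul 1 to 5 it was 3.63, 3.36, 4.42, 4.02 and 3.78. Every Emul library lay above every CTRL library, although Emul 2 exceeded CTRL 2 by little. The means were 3.06 ± 0.222 (SD, n = 4) and 3.84 ± 0.402 (SD, n = 5), a difference of 0.78 (exact permutation test, p = 0.016). From estimated counts in place of TPM the difference was 0.67 and the groups overlapped (exact permutation test, p = 0.032). From TPM and without CTRL 4, the library with the most Dio3 counts, the difference was 0.71 (exact permutation test, p = 0.054). Leaving out CTRL 1, CTRL 2 or CTRL 3 instead gave the same p-value each time (exact permutation test, p = 0.036). Leaving out any Emul library leaves 4 libraries per group without overlap, which fixes the p-value in advance (exact permutation test, p = 0.029). Those fits are therefore no check of the p-value. In them the difference ran from 0.63 without Emul 3 to 0.90 without Emul 2. The ratio rests on 19 to 43 counts of Dio3 per library. In log2 CPM both genes overlapped between groups (exact permutation test, p = 0.095 for Dio2 and p = 0.22 for Dio3). The ratio of Thra to Thrb and the shares of receptor products were tested in the same way, and no p-value was adjusted over these tests. How often ratios of other genes separate the groups was not computed.

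**Figure D2:**
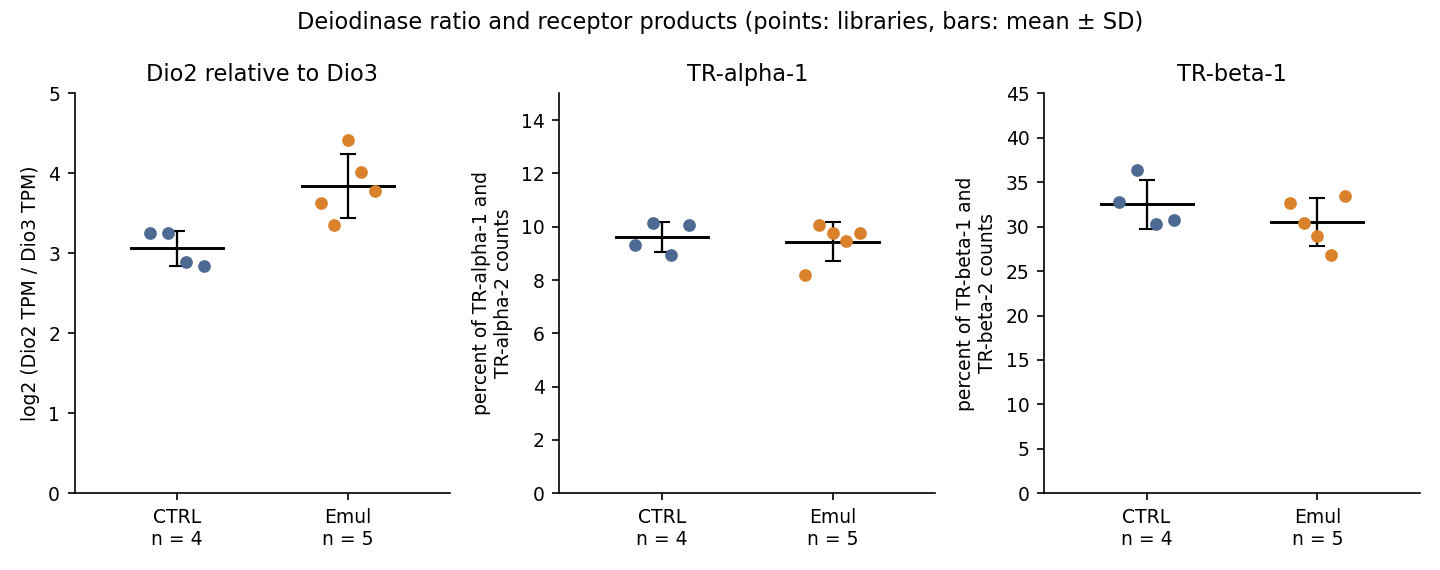
Log2 ratio of Dio2 to Dio3 TPM (left), and percent of estimated counts on the T3-binding product of Thra (middle) and on TR-beta-1 of Thrb (right), by group. Points are libraries and bars are mean ± SD. The 5 Emul ratios lie above the 4 CTRL ratios, and both product shares overlap between the groups.

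Crym encodes mu-crystallin, a protein of the cytosol that binds T3 and holds it in the cell. Its log2 CPM was 2.17, 2.18, 2.44 and 2.24 in CTRL 1 to 4 and 2.00, 2.58, 2.13, 2.15 and 2.51 in Emul 1 to 5. The Emul libraries lay on both sides of CTRL, 2 above and 3 below all of them. The difference was 0.03, with a 95% interval from -0.25 to 0.31 (limma-voom unadjusted p = 0.83, adjusted p = 0.94).

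Thra encodes the receptor TR-alpha and was the most abundant of the 7. Its log2 CPM was 8.85, 8.83, 8.85 and 8.79 in CTRL 1 to 4 and 8.89, 8.90, 8.80, 8.84 and 8.84 in Emul 1 to 5. All 9 libraries lay between 8.79 and 8.90 and the groups overlapped. The difference was 0.02, with a 95% interval from -0.04 to 0.09 (limma-voom unadjusted p = 0.40, adjusted p = 0.71). Thrb encodes TR-beta, with log2 CPM of 4.71, 4.69, 4.67 and 4.82 in CTRL 1 to 4 and 4.68, 4.62, 4.68, 4.76 and 4.86 in Emul 1 to 5. The groups overlapped, and the difference was -0.01, with a 95% interval from -0.13 to 0.11 (limma-voom unadjusted p = 0.87, adjusted p = 0.95). The log2 ratio of Thra to Thrb TPM averaged 4.66 in CTRL (SD 0.046, n = 4) against 4.69 in Emul (SD 0.165, n = 5) (exact permutation test, p = 0.71).

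Each receptor gene makes more than 1 protein, and the sum over a gene hides their balance. TR-alpha-1 and TR-alpha-2 share their first 1110 coding bases, or 370 codons, and then part, at an exon end that TR-alpha-1 reads through. TR-alpha-1 goes on in the same exon and binds T3, while TR-alpha-2 joins a later exon and does not bind T3. The coding sequence around that point, from the GENCODE M21 transcripts (mm10, plus strand), is shown with 30 shared bases in lower case and the first 45 bases of each product's own end in capitals.
TR-alpha-1 (Thra-202), own bases at chr11:98764406-98764450: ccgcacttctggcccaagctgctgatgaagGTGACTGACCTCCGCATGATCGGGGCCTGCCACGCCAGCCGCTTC
TR-alpha-2 (Thra-201), own bases at chr11:98768157-98768201: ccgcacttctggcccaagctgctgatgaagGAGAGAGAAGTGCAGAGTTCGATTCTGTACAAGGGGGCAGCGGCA
The own coding part of TR-alpha-1 is 120 bases long and that of TR-alpha-2 is 366 bases long.

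Most Thra counts were on TR-alpha-2. Over the 9 libraries, 83.0% of the counts of the gene were on TR-alpha-2 and 8.75% on TR-alpha-1. Another 6.56% were on Thra-203, a transcript annotated with an incomplete coding part and assigned to neither product. Of the counts on TR-alpha-1 and TR-alpha-2, TR-alpha-1 took 9.31%, 10.1%, 8.96% and 10.1% in CTRL 1 to 4 and 8.17%, 10.1%, 9.75%, 9.45% and 9.75% in Emul 1 to 5. Emul 1 had the lowest share and the others lay among the CTRL libraries. The means were 9.62% ± 0.577 (SD, n = 4) and 9.44% ± 0.739 (SD, n = 5), which did not differ beyond the spread (exact permutation test, p = 0.72). The end of Thra lies under the clock gene Nr1d1, which is read from the other strand. Of the 2452 exon bases of the TR-alpha-2 transcript, 263, all coding, fall in Nr1d1 exons, against 0 of the TR-alpha-1 transcript. The libraries were strand-specific, but whether strand was used in quantification is not given in the sources used here, so reads from this stretch may have been shared between the genes. Nr1d1 itself had 1903 to 2944 counts per library and a log2 fold change of 0.00 (limma-voom unadjusted p = 0.94).

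TR-beta-1 and TR-beta-2 differ at the other end. They start from separate promoters, share their last 1100 coding bases and have different first parts. TR-beta-2 is the form known from the hypothalamus and pituitary, where it takes part in the feedback of T3 on its axis. The last 45 bases of each own first part are in capitals, and the first 30 shared bases, at chr14:18002528-18002557 on the plus strand of mm10, are in lower case.
TR-beta-1 (Thrb-201), own bases at chr14:17963277-17963321: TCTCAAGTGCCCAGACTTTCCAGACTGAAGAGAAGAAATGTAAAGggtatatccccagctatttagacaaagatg
TR-beta-2 (Thrb-202), own bases at chr14:17982157-17982201: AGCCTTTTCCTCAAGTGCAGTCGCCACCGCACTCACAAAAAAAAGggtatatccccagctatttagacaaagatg
TR-beta-2 took 65.3% of the counts of Thrb. Of the counts on both products, TR-beta-1 took 32.7%, 36.3%, 30.3% and 30.7% in CTRL 1 to 4 and 32.7%, 30.4%, 29.0%, 26.9% and 33.5% in Emul 1 to 5. The groups overlapped widely. The means were 32.5% ± 2.76 (SD, n = 4) and 30.5% ± 2.70 (SD, n = 5) (exact permutation test, p = 0.31). Per length the products were closer, with TR-beta-1 at 43.0% of the TPM of both in CTRL and 41.8% in Emul (exact permutation test, p = 0.62). The TR-beta-2 transcript is 6200 bases long and carries 1531 bases after its coding part that the TR-beta-1 transcripts lack. Part of the TR-beta-1 TPM was on a short transcript, Thrb-203, of 1758 bases and with 2.93% of the counts of Thrb. It held 2.28 TPM in CTRL 1 and 1.78 in Emul 3, but 0 in CTRL 3 and Emul 1. The TPM share therefore also moves with how these few counts were shared out.

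Klf9 encodes a Kruppel-like transcription factor that T3 induces in developing brain and that acts in the outgrowth and maturation of neurons. Its log2 CPM was 7.21, 7.15, 7.06 and 7.04 in CTRL 1 to 4 and 7.19, 7.22, 7.47, 7.30 and 7.38 in Emul 1 to 5. Emul 2 to 5 lay above every CTRL library, Emul 2 by very little, and Emul 1 lay just under CTRL 1, so the groups overlapped. The difference of 0.20 had a 95% interval from 0.07 to 0.32, or 1.05-fold to 1.25-fold, and 2.83% of all genes had a smaller p-value. By size, 11.1% of genes differed by more. The exact permutation test of log2 CPM gave p = 0.040. The log2 fold change lay between 0.16 and 0.23 in all 22 alternatives, the unadjusted p-value was under 0.05 in each, and DESeq2 was the only one to give an adjusted p-value under 0.05, at 0.036.

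The promoter of Klf9 is shown beside that of Dio2, as that of the only gene with an unadjusted p-value under 0.05. It lies at chr19:23140976-23141225 on the plus strand of GRCm38.p6, from RefSeq, and capitals mark a CRE half-site, TGACG, 46 bases before the start.
Klf9 promoter: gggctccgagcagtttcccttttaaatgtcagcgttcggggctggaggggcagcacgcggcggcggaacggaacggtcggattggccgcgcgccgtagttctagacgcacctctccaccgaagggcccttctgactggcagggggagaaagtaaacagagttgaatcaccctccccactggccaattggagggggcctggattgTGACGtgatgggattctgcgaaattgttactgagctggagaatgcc
TGACG occurs on either strand in 17.8% of all windows. It is also within the CRE of Dio2, which overlaps it on both strands. Windows were at hand for 5 starts of 4 of the genes, those of Dio2, Dio3, Klf9 and both of Thrb. AGGTCA was found in 1 of these 5, 184 bases before the start of TR-beta-1, and in 14% of all windows. The direct repeat with 4 bases between, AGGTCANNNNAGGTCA, was in 0 of the 5 and in 0.0152% of all windows. These matches are of letters only and are not binding sites.

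Hr encodes hairless, a co-repressor of nuclear receptors and a direct T3 target in brain. Its log2 CPM was 7.08, 7.02, 6.78 and 6.77 in CTRL 1 to 4 and 6.97, 6.96, 7.23, 7.21 and 6.97 in Emul 1 to 5. CTRL 1 and 2 lay among the Emul libraries, CTRL 3 and 4 below all of them, and Emul 3 and 4 above all CTRL libraries. The difference of 0.15 had a 95% interval from -0.02 to 0.33 (limma-voom unadjusted p = 0.073, adjusted p = 0.37). With 1 library left out at a time it ran from 0.11 without CTRL 4 (limma-voom unadjusted p = 0.23) to 0.21 without CTRL 1 (limma-voom unadjusted p = 0.024, adjusted p = 0.30). Of these 9 fits, the one without Emul 2 was the only other with an unadjusted p-value under 0.05 (0.18, limma-voom unadjusted p = 0.047, adjusted p = 0.31).

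**Figure D3:**
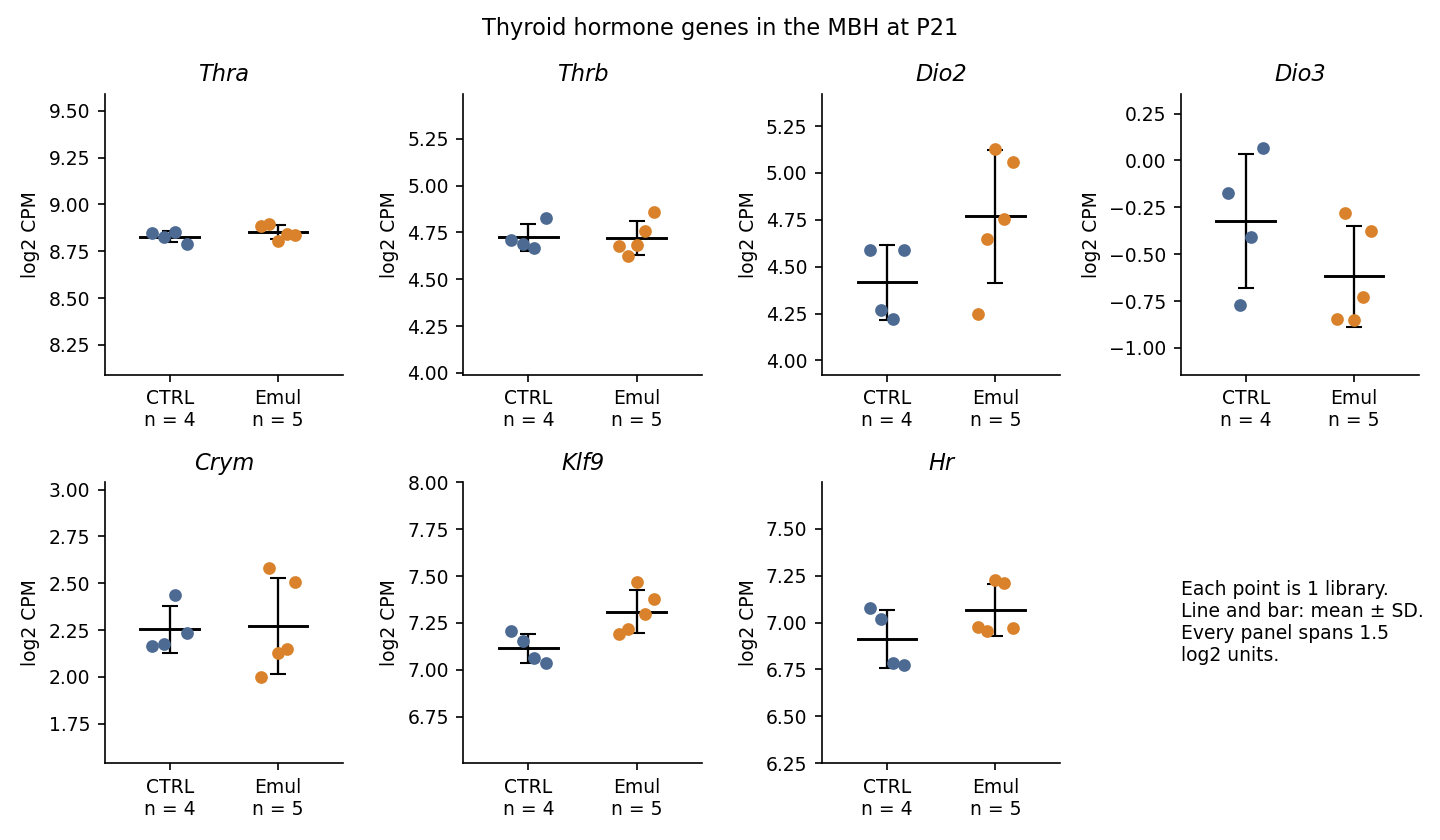
Log2 CPM of the 7 genes in each library, with mean ± SD per group. Every panel spans 1.5 log2 units, so spreads can be compared between genes. The points of Dio2 and Dio3 scatter widest, those of Thra lie within 8.79 to 8.90, and 4 of the 5 Emul points of Klf9 and of Dio2 lie above all CTRL points.

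Deviations from the group means were compared between the genes. With group means removed, Pearson's r over the 9 libraries was 0.75 for Dio2 with Klf9 (Spearman's rho 0.77) and 0.73 for Klf9 with Hr (rho 0.67). Exact permutation of libraries within groups gave p = 0.043 and p = 0.036 for r and p = 0.035 and p = 0.045 for rho. Over the 15 pairs of the 6 genes, no pair passed adjustment (adjusted p = 0.22 for both r values and 0.17 for both rho values). Without the 2 libraries farthest from the median, r was 0.48 and 0.63. For Dio2 with Klf9, r was 0.17 within CTRL alone and 0.92 within Emul alone. For Klf9 with Hr it was 0.99 within CTRL and 0.605 within Emul. For Dio2 with Hr, r was 0.34 (rho 0.37, permutation p = 0.38 and 0.31, and -0.009 without these 2 libraries). Thra went against Dio2 at r = -0.74 (rho -0.75, permutation p = 0.044 and 0.047, adjusted p = 0.22 and 0.17, and -0.69 without the 2 libraries farthest from the median). Crym went against Hr by rank (rho -0.63, permutation p = 0.023, adjusted p = 0.17) and less clearly by r (-0.54, permutation p = 0.15, adjusted p = 0.44, and -0.355 without the 2 libraries farthest from the median).

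The genes whose deviations were most like those of each member were taken from 11268 genes with a mean log2 CPM above 3, by Pearson's r over the 9 libraries with group means removed. For Dio2 they included Amot (0.96) and Dpysl3 (0.95). For Klf9 they were Eif5b (0.97), Map1b (0.95) and Gpcpd1 (0.94), and for Hr Dclre1a (0.95), the insulin receptor gene Insr (0.94) and Stxbp3 (0.94). For Thra they were Taf7 (0.94), C1galt1c1 (0.93) and Akr1a1 (0.93), for Thrb they included Slc41a3 (0.93) and Zfp326 (0.93), and for Crym they were Bcar1 (0.95), Tceal9 (0.94) and Kctd5 (0.94). With 9 points and this many genes, between 5 and 19 genes reached an r above 0.9 for each member, so these values describe the libraries only.

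Per length, the 7 genes differed widely in level. Mean TPM over the 9 libraries was 430.2 for Thra, 65.3 for Klf9, 46.9 for Hr, 16.9 for Thrb, 8.24 for Dio2, 6.99 for Crym and 0.739 for Dio3. Thra lay above 98.3% of the genes that passed the filter, and Dio3 above 1.8%. In all 9 libraries each gene lay above the next in this order, with 1 exception. Dio2 and Crym changed places in 3 of the 9, so the order of these neighbours was within their spread. TPM is a share of all transcripts in a library, and mitochondrially encoded transcripts took 12.6% to 15.4% of it in CTRL and 16.2% to 19.2% in Emul. The median gene was 0.10 lower in Emul on the log2 TPM scale, a shift whose cause was not tested, and Thra, at 443 TPM in CTRL (SD 14.8, n = 4) against 420.2 in Emul (SD 11.8, n = 5) (exact permutation test, p = 0.064), differed by less than that. For the comparison of groups the TMM-scaled values above were used. Leaving mitochondrial genes out of the counts gave a log2 fold change of 0.20 for Klf9 and 0.34 for Dio2, against 0.20 and 0.33 with them.

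**Figure D4:**
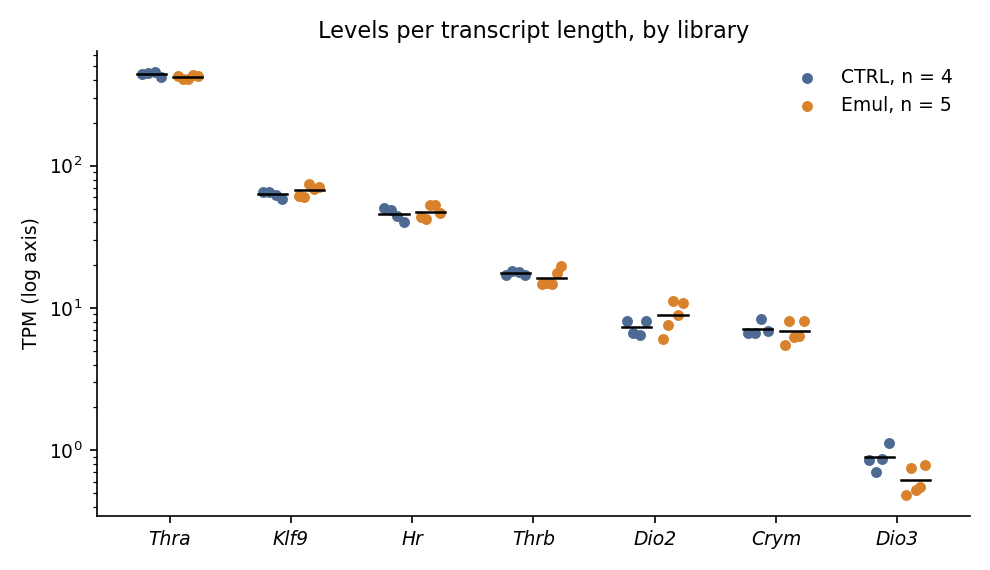
TPM of the 7 genes in each library on a log axis, in order of mean level, with CTRL in blue and Emul in orange. Lines are group means. The order from Thra to Dio3 is the same in every library except between Dio2 and Crym, whose points overlap.

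Genes that bring the hormone into cells showed no common direction. Of 8 transporter genes 7 were tested, and 1 of the 7 had an unadjusted p-value under 0.05, the T4 carrier Slco1a4 of brain endothelium, which was lower in Emul (-0.25, limma-voom unadjusted p = 0.012, adjusted p = 0.20). Slco1c1, which encodes the T4 transporter OATP1C1, was at -0.09 (limma-voom unadjusted p = 0.20). The median of the list was 0.01, against 0.00 over all genes. Of the 12 genes of the thyroid axis 8 were tested, with a median of -0.07, and 0 of the 8 had an unadjusted p-value under 0.05. Trh, the hypothalamic hormone that T3 suppresses, had a log2 CPM of 5.68, 5.66, 6.33 and 5.48 in CTRL and 5.89, 5.31, 4.52, 6.00 and 4.99 in Emul, with a difference of -0.40 (SE 0.26, limma-voom unadjusted p = 0.15). The groups overlapped. Trhde, the ectoenzyme that degrades TRH, was at 0.07 (limma-voom unadjusted p = 0.65), and Ttr, the T4 carrier of the choroid plexus, had 10 to 42 counts and was not tested.

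Partners of the receptors differed little between the groups. Of 16 retinoid X receptors, co-repressors and co-activators, 1 had an unadjusted p-value under 0.05, the acetyltransferase Ep300, which was lower (-0.09, limma-voom unadjusted p = 0.023, adjusted p = 0.24). Their median was 0.01 and all 16 lay between -0.09 and 0.09. Of 15 tested genes described as raised by T3 in rodent brain, 2 were higher at an unadjusted p-value under 0.05, Rasd2 (0.13, limma-voom unadjusted p = 0.027) and Sema7a (0.14, limma-voom unadjusted p = 0.043). Another 2 were lower, among them the myelin gene Mbp (-0.29, limma-voom unadjusted p = 0.0058), and the median was 0.08. Of 7 genes described as lowered by T3, 1 was higher at this threshold, Cirbp (0.13, limma-voom unadjusted p = 0.042), 1 was lower, and the median was -0.08. None of these genes passed adjustment (limma-voom adjusted p of 0.17 or more).

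Klf9 is also induced by glucocorticoids and cycles with the clock, so genes of these kinds and its relatives are given beside it. Of 12 other Klf genes, Klf11 was higher (0.17, limma-voom unadjusted p = 0.021), with every Emul library above every CTRL library, and Klf16 (-0.24, limma-voom unadjusted p = 0.0048) and Klf5 (-0.20, limma-voom unadjusted p = 0.036) were lower. The median of these 12 was -0.09, and 3 of them lay above 0. Of 8 glucocorticoid-induced genes, Zbtb16 was higher (0.71, SE 0.19, limma-voom unadjusted p = 0.0025, adjusted p = 0.14). Its log2 CPM was 4.90, 4.87, 4.56 and 3.87 in CTRL and 5.11, 5.03, 5.51, 5.10 and 5.52 in Emul, so the groups did not overlap. Per1 was lower (-0.12, limma-voom unadjusted p = 0.020), and Fkbp5, the FK506-binding protein gene, was at 0.31 (limma-voom unadjusted p = 0.077). The median of these 8 was 0.00. Of 9 clock genes, Ciart was higher (0.25, limma-voom unadjusted p = 0.0015) and Bhlhe41 lower (-0.08, limma-voom unadjusted p = 0.049), with a median of 0.03. None of these genes passed adjustment, and the part of glucocorticoids in the values of Klf9 was not tested.

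**Figure D5:**
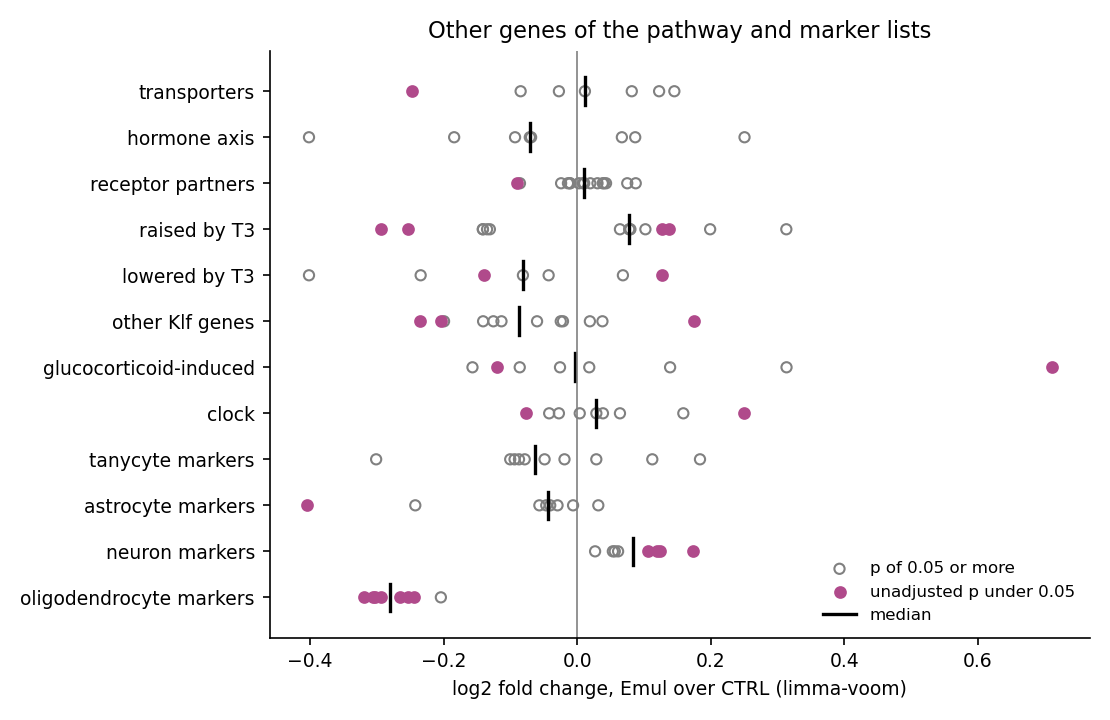
Log2 fold changes (horizontal axis) of the tested genes of each pathway and marker list, with filled points at an unadjusted p-value under 0.05 and a black line at the median. Points of receptor partners lie close to 0, oligodendrocyte markers all lie below it, and Zbtb16 stands apart at 0.71 among the glucocorticoid-induced genes.

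Of the marker lists for cell types, that of oligodendrocytes had the most genes under the threshold. Summed levels of marker lists are CPM on library size alone, without TMM scaling. Of 8 oligodendrocyte markers, 7 were lower in Emul at an unadjusted p-value under 0.05 and all 8 lay between -0.32 and -0.20, with a summed level of 13632 to 17056 CPM in CTRL and 10360 to 14368 CPM in Emul. Both genes raised by T3 that were lower in Emul, Mbp among them, are also in this list. Of 8 neuron markers, 4 were higher at this threshold, with a median of 0.08 and a summed level of 4803 to 4993 CPM in CTRL and 4930 to 5151 CPM in Emul. Of 8 astrocyte markers, Gfap was the only one under this threshold (-0.40, limma-voom unadjusted p = 0.00061), and the median was -0.04. The summed level of astrocyte markers was 3631 to 3720 CPM in CTRL and 3343 to 3597 CPM in Emul. The gap between these ranges is small, and whether it holds with TMM scaling was not tested. None of these markers passed adjustment. The part of these differences in the values of Klf9, Dio2 and Hr was not tested. Tanycytes are a main source of Dio2 in the MBH, and 0 of 10 tanycyte markers had an unadjusted p-value under 0.05, with a median of -0.06, a lowest value of -0.30 for Adm and a highest of 0.18 for Slc17a8, and summed levels of 133 to 158 CPM in CTRL and 129 to 158 CPM in Emul.

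The tissue label was checked with 12 markers of the arcuate and ventromedial nuclei, of which 11 passed the filter. Pomc, Agrp, Npy, Ghrh and Nr5a1 were present in all libraries, Kiss1 was near 0, and Fezf1 alone had an unadjusted p-value under 0.05 (-0.32, limma-voom unadjusted p = 0.0089). The pituitary markers Gh and Prl had at most 2 counts in any library, while Tshb had 129 to 267. Of 6 thalamus markers, Calb2 was higher (0.20, limma-voom unadjusted p = 0.0054), the highest value was that of Tcf7l2 (0.66, limma-voom unadjusted p = 0.086), and the summed level was 303 to 359 CPM in CTRL and 308 to 479 CPM in Emul. Choroid plexus, ependymal and microglial markers gave 0 of 3, 0 of 6 and 0 of 6 with an unadjusted p-value under 0.05, and Slco1a4 was the only one of 6 endothelial markers.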

How the data were processed

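Per the labels, strand-specific mRNA libraries were sequenced in paired-end mode, and the submitters' processing notes name FastQC 0.11.9, kallisto 0.46.1 and edgeR 3.40.1 with mm10. The authors deposited, per library, estimated counts (not normalized, not always whole) and TPM for 119414 transcripts, and a log2 CPM table of 14593 rows. How that table was summed to genes, and kallisto's strand setting, are not given in the sources used here.

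Transcripts were matched to GENCODE M21 (97.8%, the rest held 1.20% to 1.27% of counts) and summed per gene. The filter asked for a CPM over 1 in 4 libraries or more. The comparison of Emul with CTRL used limma-voom (limma 3.58.1, edgeR 4.0.16 for TMM, R 4.3.3) without covariates. Log2 CPM used a prior count of 2, and ratios used no pseudocount. The shift of the TPM scale was computed with a pseudocount of 0.1. The groups and replicate numbers come from the labels. No date, lane or other batch is given there. All pairs of replicates differed beyond counting noise (lowest chi-square per gene 7.49), and where libraries share an animal or litter p-values measure only their spread. Depth leaves little counting error for the members other than Dio3 and, with 153 to 246 counts, Crym.

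Same-numbered CTRL and Emul libraries did not deviate together (correlations -0.163, -0.015, 0.021 and -0.055), so the numbers were not used to pair them. The alternatives tried were DESeq2 1.42.0 and edgeR's quasi-likelihood test (both on rounded counts), limma-trend, sample weights, other scalings and filters, counts scaled from TPM, the authors' table, the replicate block, and each library left out. Scripts were tested on simulated counts. The genes, the lists of pathway and marker genes and the tests were chosen with earlier results of these data known. Genes named are the members, list genes with an unadjusted p-value under 0.05, Slco1c1, Trh, Trhde, Ttr and Nr1d1, the 3 genes most like each member, and the extremes of marker lists. Other genes named, such as Fkbp5, Tshb and the markers of tissue, were added after their values were seen. Some genes that these rules name are not reported here.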

Additional observations from a re-analysis of the deposited data

How the results depend on the processing

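Klf9 kept its direction and an unadjusted p-value under 0.05 in all 22 alternatives, with a log2 fold change of 0.16 to 0.23 when each library was left out. Dio2 passed that threshold in edgeR (0.37, unadjusted p = 0.033), DESeq2 (0.38, unadjusted p = 0.0496) and limma-trend (0.35, unadjusted p = 0.043), and ran from 0.24 to 0.46 with a library left out. Hr passed it in DESeq2 (0.16, unadjusted p = 0.044) and ran from 0.11 to 0.21 with a library left out. The number of the 6 genes past it was 2 in edgeR, 3 in DESeq2, 2 in limma-trend and 1 to 2 with a library left out. Of all 15340 genes tested, 2464 passed it in edgeR, 2338 in DESeq2 and 2492 in limma-trend, against 2428 in limma-voom. With a library left out, 1907 to 2654 genes passed it.

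Directions near 0 reversed. Thra was at -0.0064 with library size alone, and Thrb at 0.0014 in the authors' table and between -0.041 and 0.028 with a library left out. Crym was at -4.3e-05 with library size alone, -0.014 with the replicate block and between -0.053 and 0.095 with a library left out. With a library left out, the difference in the log2 ratio of Thra to Thrb ran from -0.0053 to 0.098, that in the TR-alpha-1 share from -0.40 to 0.14 percentage points, and that in the log2 ratio of Dio2 to Dio3 from 0.63 to 0.90.

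The replicate numbers did not pair the libraries. With the number as a replicate block, Klf9 was at 0.18 (unadjusted p = 0.028), and the Dio2 to Dio3 difference was 0.79 (exact sign-flip p = 0.125, the smallest that 4 pairs can give). It changed no call of the 6 tested genes, and Dio3 alone was not fitted with the block.

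The number of genes at an adjusted p-value under 0.05, 18 in limma-voom, was 33 in edgeR, 341 in DESeq2, 8 in limma-trend, 36 with sample weights, 10 with median-of-ratios size factors, 60 with library size alone, 6 without mitochondrial genes, 5 without a filter, 6 with counts scaled from TPM, 5 with those of older transcripts, 5 in the authors' table, 1 with the replicate block, and 0 to 24 with a library left out. The 0 was without CTRL 2, where limma-voom gave 2081 genes at an unadjusted p-value under 0.05. The number at an unadjusted p-value under 0.05 with a change above 1.5-fold, 72, was 688 without a filter, 37 with a CPM above 1 in all libraries, and 48 to 95 with a library left out. The cause of these shifts was not tested. Depth limits Dio3 most (19 to 43 counts), then Crym (153 to 246 counts).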
